A study of Mus musculus with 6 samples.

Results

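Cytochrome P450 enzymes of families 3 and 4 in mouse hepatocytes were examined before and after partial hepatectomy (PHx), an operation in which a large part of the liver is cut away and the hepatocytes left behind divide. The members were all protein-coding genes of the mouse annotation GENCODE M21 named Cyp3a or Cyp4 with a following letter, whatever their level, and 29 of the 55450 counted genes met that rule. They comprised 9 Cyp3a genes, 8 Cyp4a genes, 9 Cyp4f genes, and Cyp4b1, Cyp4v3 and Cyp4x1. RNA-Seq had been done on total RNA from hepatocytes of C57BL/6 mice (C57BL/6J in the study's methods) fed a normal diet. The mice were male per those methods and aged 10 to 12 weeks per the labels, while the methods give a somewhat younger age at surgery. The 0 h group held 3 libraries from undamaged liver and the 48 h group 3 libraries from mice 48 hours after PHx. The labels give no transgene or drug for either group, and with no sham-operated group analysed here, loss of liver tissue cannot be told apart from the operation itself. Hepatocytes were freed by collagenase perfusion, which can carry over other liver cells. From cell type signatures in its bulk RNA-Seq, the study estimated that nearly all cells of each replicate were hepatocytes.

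Cytochrome P450 enzymes are haem proteins of the endoplasmic reticulum that insert an atom of oxygen into a substrate, with electrons supplied by the reductase Por. Cyp3a enzymes oxidize drugs, steroids and bile acids and are induced through the nuclear receptors PXR and CAR. Cyp4 enzymes hydroxylate the far end of fatty acids and eicosanoids, and several Cyp4a genes are classic targets of the fatty acid receptor PPARalpha. In mouse liver, growth hormone acting through Stat5b sets male and female patterns for members of both families.

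The families share the loop that holds the haem iron, in which the sulphur of a cysteine binds the metal. The longest annotated coding sequence of each gene was searched for a run of codons. These were phenylalanine, any 2 residues, glycine, any 2 residues and any further residue, cysteine, any residue and glycine. A stretch of this kind, 30 bases for 10 residues, was found once in 28 of the 29 genes. It is shown for the members the results turn on, because it shows how alike the subfamilies are at a site they have in common, with the cysteine codon in capitals.
Cyp3a11: tttgggaatggacccaggaacTGCcttggc
Cyp3a13: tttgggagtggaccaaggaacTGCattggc
Cyp3a25: tttggaaatggacccaggaacTGCataggc
Cyp4a10: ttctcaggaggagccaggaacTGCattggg
Cyp4a12a: ttctcaggaggagcaaggaacTGCattggg
Cyp4a14: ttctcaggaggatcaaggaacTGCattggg
Cyp4f13: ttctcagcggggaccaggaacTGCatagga
Cyp4f14: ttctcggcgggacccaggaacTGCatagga
Cyp4f15: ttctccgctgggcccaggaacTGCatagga
Cyp4b1: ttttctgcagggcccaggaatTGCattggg
Cyp4v3: ttttctgctggacctcgaaacTGTattggt
Cyp3a59: tttggaaatggacccaggaactgcCtagAc
Cyp3a59 was the gene without a match. Its stretch, aligned with coding bases 1303 to 1332 of Cyp3a25, differed from that of Cyp3a25 at 2 bases, which are the capitals in its line.

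The genes lie in clusters of the mm10 build. Cyp3a13 stood apart on chromosome 5 at chr5:137892932-137921619, and the other 8 Cyp3a genes lay within chr5:145345279-146113287. The Cyp4a genes, Cyp4b1 and Cyp4x1 occupied chr4:115106323-115647723. Apart from Cyp4f18 the Cyp4f genes lay within chr17:32452723-32947402, while Cyp4f18 at chr8:71988482-72009626 and Cyp4v3 at chr8:45304944-45333216 were on chromosome 8.

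Several neighbours are near-identical copies, so the source of a read can be uncertain. Coding sequences were 99.87% identical between Cyp3a41a and Cyp3a41b, 98.49% between Cyp4a12a and Cyp4a12b, 97.48% between Cyp3a25 and Cyp3a59, 97.18% between Cyp4a10 and Cyp4a32, and 96.59% between Cyp4a10 and Cyp4a31. The more distant pairs Cyp3a11 with Cyp3a25 and Cyp4a10 with Cyp4a14 were 76.07% and 75.91% identical. Coding bases 301 to 360 of Cyp4a12a and of Cyp4a10 show the problem, with bases that differ from the first gene of each group in capitals.
Cyp4a12a: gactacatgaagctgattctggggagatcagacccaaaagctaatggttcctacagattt
Cyp4a12b: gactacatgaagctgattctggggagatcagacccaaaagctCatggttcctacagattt
Cyp4a10: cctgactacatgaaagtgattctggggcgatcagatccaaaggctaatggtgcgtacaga
Cyp4a31: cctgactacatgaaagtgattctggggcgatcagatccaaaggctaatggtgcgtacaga
Cyp4a32: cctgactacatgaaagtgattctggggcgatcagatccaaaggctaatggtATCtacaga
Cyp4a10 and Cyp4a31 had 0 differences in this window, Cyp4a32 had 3, and Cyp4a12b had 1 from Cyp4a12a. Windows of 50 bases found in the annotated transcripts of no other gene made up 51.1% of the transcript windows of Cyp4a12a, 50.6% of Cyp4a12b, 56.2% of Cyp4a32, 70.2% of Cyp4a10, 79.5% of Cyp4a31, 73.2% of Cyp3a25 and 70.0% of Cyp3a59. The share was 93.3% for Cyp3a11, 99.8% for Cyp4a14 and at least 97.0% for Cyp4f13, Cyp4f14, Cyp4f15 and Cyp4f17. Reads of these last genes could be placed almost throughout, whereas much of the Cyp4a12 pair could not be told apart at that length. Among genes with substantial counts, Cyp4v3 shared 8.22% of its exon bases with the overlapping gene Gm45753 on the same strand.

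**Figure D1:**
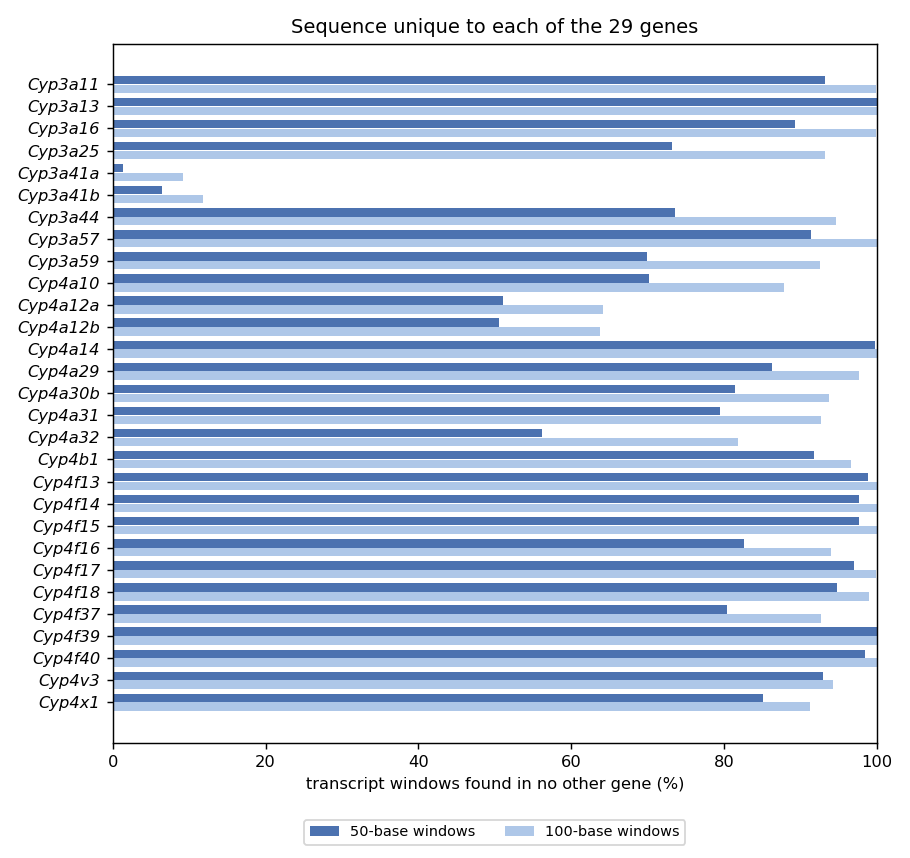
Share of transcript windows of 50 and 100 bases that occur in the annotated transcripts of no other gene (x axis, %), for each of the 29 genes (y axis). Cyp3a41a and Cyp3a41b had 1.39% and 6.50% unique 50-base windows, and Cyp4a12a and Cyp4a12b 51.1% and 50.6%, whereas Cyp3a13, Cyp4a14 and most Cyp4f genes were almost fully unique.

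Libraries held between 31419443 and 36346220 counts on genes. Levels are given as CPM (counts scaled to a fixed library total) after scaling by edgeR's TMM factors, and comparisons between genes as FPKM, the same value per kilobase of exon. The tests were edgeR's quasi-likelihood test on counts with Benjamini-Hochberg adjustment over 17037 genes, and a gene was called at an adjusted p under 0.05. Hepatocyte markers summed to between 105000 and 126000 CPM at 0 h and between 72200 and 87000 CPM at 48 h, with 6 of 10 lower and 1 higher. Kupffer cell markers summed to 78.3 to 118 CPM at 0 h and 112 to 137 CPM at 48 h (2 of 10 higher), and endothelial markers to 225 to 353 and 158 to 175 CPM (9 of 10 lower). Stellate cell markers summed to 113 to 175 and 74.3 to 94.1 CPM (3 of 8 lower, 1 higher), and cholangiocyte markers to 35.2 to 63.4 and 47.8 to 59.6 CPM (2 of 4 tested higher). Over all genes tested, 19.3% were called lower and 21.4% higher, and the rises of Kupffer cell markers were near that background. Counts of these calls moved when 1 library was left out. Without 0 h replicate 1, 5 stellate markers and 1 Kupffer cell marker were lower. Hepatocyte markers called higher were 0 without 0 h replicate 1 or 3. Endothelial markers called lower were 6 without 0 h replicate 3, and 7 without 0 h replicate 2 or 48 h replicate 1 or 2. Of the cholangiocyte markers, 0 of 3 tested were higher without 48 h replicate 3, and 1 was higher without 0 h replicate 2 or 3 or 48 h replicate 1 or 2. Without 0 h replicate 2, 1 cholangiocyte marker was also called lower. Neutrophil markers were near 0, at 0.0903 to 0.408 and 0.594 to 1.06 CPM in sum, with Mpo, Ltf and Retnlg at 0 in every library. In bulk RNA, fewer cells of a type cannot be told apart from less RNA per cell, and the part that these marker shifts have in the results that follow was not tested.

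Most tested Cyp4 genes were lower at 48 h, whereas the tested Cyp3a genes were evenly split between lower and not called, and the most abundant member, Cyp3a11, was not called. Of the 18 members that passed the filter of 10 counts in 3 libraries, 12 were lower, 2 higher and 4 not called. Over all genes tested, 19.3% were called lower and 21.4% higher. The median log2 fold change was -1.12 over the 18 members and -0.00325 over all genes tested. The 11 other members were at or near 0 counts and are described last. By subfamily, 2 of 4 tested Cyp3a genes, 4 of 6 Cyp4a, 4 of 6 Cyp4f and both tested single-gene subfamilies, Cyp4b1 and Cyp4v3, fell, while 1 Cyp4a gene and 1 Cyp4f gene rose. Counts on the Cyp4 genes were 0.257% ± 0.049 of all gene counts at 0 h and 0.114% ± 0.0326 at 48 h (SD, n = 3 each), and those on the 9 Cyp3a genes 0.632% ± 0.0674 and 0.593% ± 0.0628. These sums were not tested.

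**Figure D2:**
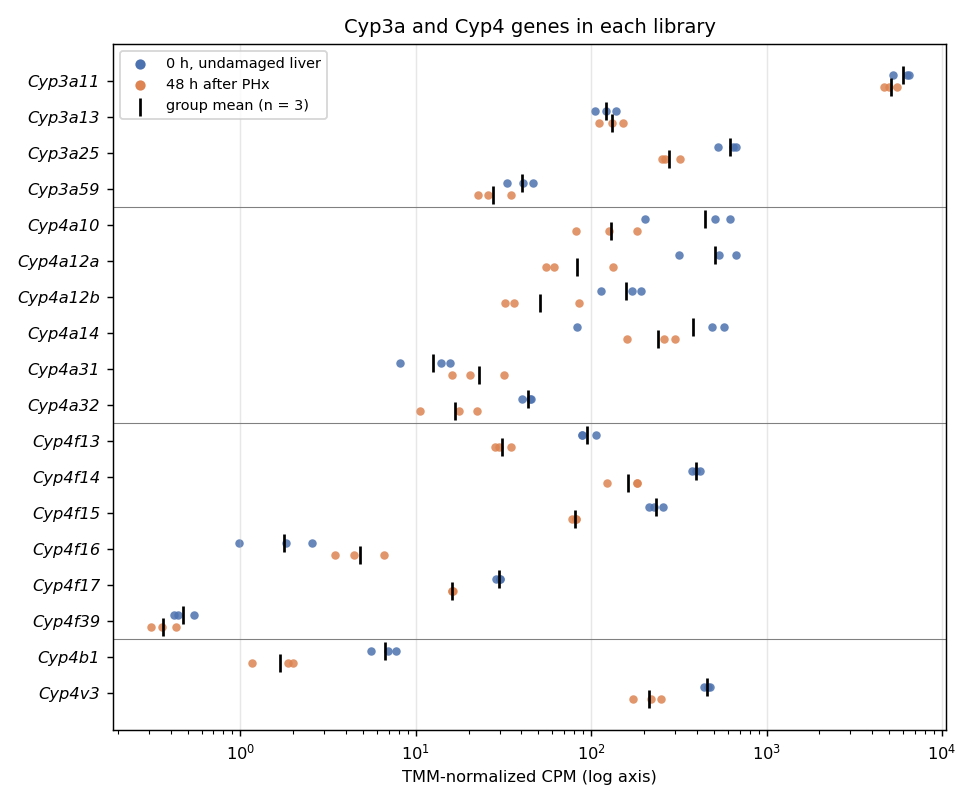
TMM-normalized CPM on a log axis (x) of the 18 tested members (y), with 1 point per library (0 h blue, 48 h orange) and a black bar at each group mean (n = 3). Points of the 2 groups overlap for Cyp3a11, Cyp3a13, Cyp3a59, Cyp4a14 and Cyp4f39, and lie apart for the other genes shown. The share of all tested genes whose groups lie apart was not counted, so the separation is a description.

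**Figure D3:**
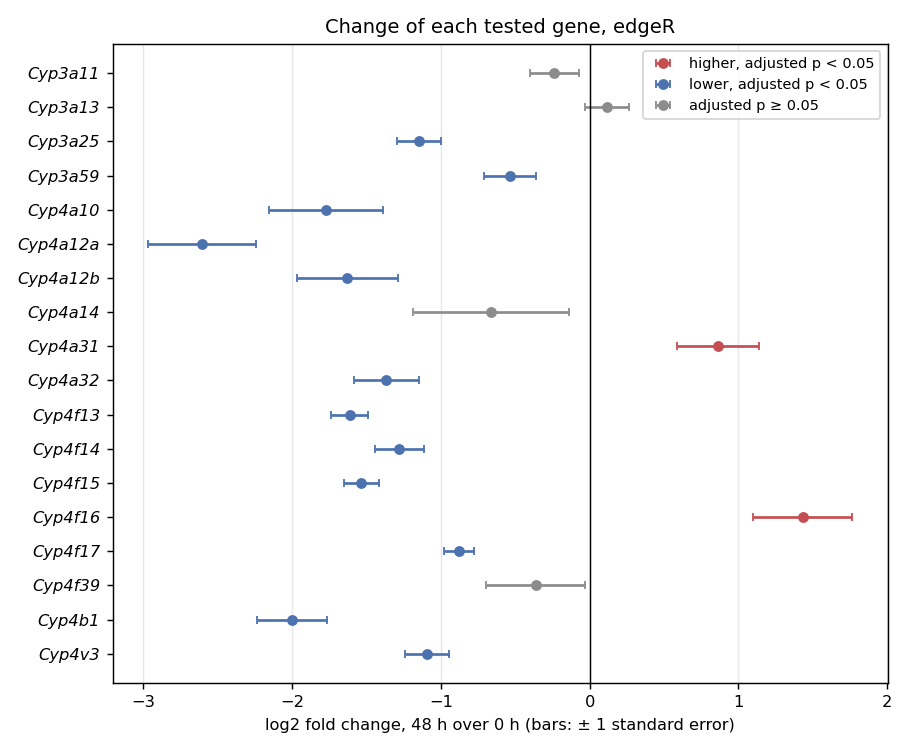
Log2 fold change of 48 h over 0 h (x), with bars of 1 standard error from edgeR, for the 18 tested members (y). Blue marks genes called lower, red the 2 called higher, Cyp4a31 and Cyp4f16, and grey the 4 not called, and Cyp4a12a is farthest to the left at -2.61.

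Cyp3a11, the main drug-oxidizing Cyp3a enzyme of mouse liver and a PXR target, ranked 18 among all genes by mean share of counts. Its libraries held 5267, 6295 and 6440 CPM at 0 h and 5008, 5563 and 4686 CPM at 48 h, so the groups overlapped. The log2 fold change of -0.24 (SE 0.165) did not pass the test (edgeR adjusted p = 0.276). Per length it was the highest member at both times, with 1178 ± 125.6 FPKM at 0 h and 998.5 ± 87.1 FPKM at 48 h (SD, n = 3). Cyp3a13, which is also expressed in the intestine, was at 104.7, 120.7 and 137.6 CPM and then at 131.2, 151.2 and 111.4 CPM. Its groups overlapped as well (log2 fold change 0.12, SE 0.145, edgeR adjusted p = 0.555).

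Cyp3a25, the second most abundant Cyp3a gene, fell to 45.2% of its level at 0 h. It was at 526.9, 672.8 and 646.6 CPM at 0 h and at 252.1, 318.7 and 263.0 CPM at 48 h, and every 48 h library was below every 0 h library (log2 fold change -1.15, SE 0.150, edgeR adjusted p = 0.000187). Cyp3a59, its close copy on the opposite strand of the cluster, was at 32.98, 46.76 and 40.87 CPM and then at 22.57, 34.85 and 25.70 CPM. Its groups overlapped, and its call as lower (log2 fold change -0.54, SE 0.174, edgeR adjusted p = 0.0311) was lost without either of 0 h replicates 2 and 3 or 48 h replicates 1 and 3, where the adjusted p ranged up to 0.108, and with scaling by library size alone (log2 fold change -0.33, edgeR adjusted p = 0.176). Each gene holds windows that the other shares, so part of a change in one could be counted in the other. Cyp3a11 made up 63.1% ± 2.04 of the counts of all 29 members at 0 h and 77.3% ± 3.84 at 48 h (SD, n = 3, not tested), while Cyp3a25 went from 6.46% ± 0.355 to 4.21% ± 0.229 of them. The Cyp4 genes took a smaller share of all gene counts at 48 h, with the values given above.

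Promoters of RefSeq on GRCm38.p6, 300 bases each from 250 before the transcription start to 50 after it, were at hand for 22 members. Cyp4a10, Cyp4a12a, Cyp4a12b, Cyp4a14, Cyp4a31, Cyp4f17 and Cyp4x1 had no entry. The 250 bases before the start are shown for Cyp3a11, which was not called, and for the neighbours Cyp3a25 and Cyp3a59, both called lower. The windows are chr5:145879855-145880104 (minus strand), chr5:146009618-146009867 (minus strand) and chr5:146079008-146079257 (plus strand). Capitals mark matches, on either strand, to AGGTCA or AGTTCA, which are half-sites of nuclear receptors, to CAAAGTCCA, a form of the Hnf4a site, and to TATAAA, the core of the TATA box.
Cyp3a11: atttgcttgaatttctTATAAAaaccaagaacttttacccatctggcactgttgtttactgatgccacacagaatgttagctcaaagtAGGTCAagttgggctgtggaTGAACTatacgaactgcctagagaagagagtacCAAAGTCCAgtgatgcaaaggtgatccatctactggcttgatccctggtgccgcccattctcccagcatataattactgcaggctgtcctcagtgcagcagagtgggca
Cyp3a25: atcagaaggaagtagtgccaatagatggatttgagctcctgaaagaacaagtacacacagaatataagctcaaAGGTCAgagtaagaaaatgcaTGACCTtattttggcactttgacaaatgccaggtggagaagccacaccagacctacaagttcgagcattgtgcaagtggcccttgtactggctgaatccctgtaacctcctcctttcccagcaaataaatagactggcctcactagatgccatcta
Cyp3a59: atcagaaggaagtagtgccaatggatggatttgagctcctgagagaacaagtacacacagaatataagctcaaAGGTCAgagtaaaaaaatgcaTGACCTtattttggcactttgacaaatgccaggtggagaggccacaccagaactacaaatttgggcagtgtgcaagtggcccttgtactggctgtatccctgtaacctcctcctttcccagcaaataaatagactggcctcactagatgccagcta
The promoter of Cyp3a11 held AGGTCA at -162 to -157, TGAACT, which is AGTTCA read on the other strand, at -142 to -137, CAAAGTCCA at -109 to -101 and TATAAA at -234 to -229 from the start. Those of Cyp3a25 and Cyp3a59 held AGGTCA at -177 to -172 and its reverse complement TGACCT at -156 to -151. The last 2 promoters were 95.68% identical, so their matches are not independent, and each was about as far from that of Cyp3a11 (52.76% and 54.95%). Among the 32851 promoters of the table, AGGTCA occurred in 16.26%, AGTTCA in 13.99%, CAAAGTCCA in 0.4749% and TATAAA in 13.62%. Among the 22 members, CAAAGTCCA occurred in Cyp3a11, Cyp3a16, Cyp3a41a and Cyp3a41b, which are related copies. AGGTCA occurred in Cyp3a11, Cyp3a25, Cyp3a44, Cyp3a57, Cyp3a59 and Cyp4a29. AGTTCA occurred in Cyp3a11, Cyp3a41a, Cyp3a41b, Cyp4a32, Cyp4f13 and Cyp4v3, and TATAAA in Cyp3a11, Cyp3a16, Cyp3a41a, Cyp3a41b, Cyp3a44 and Cyp4a32. The Stat5 motif TTCNNNGAA was in 8.298% of all promoters and, among the members, in Cyp4b1 and Cyp4f13. Matches were found in genes that fell, in genes that were not called and in genes near 0 counts. They describe letters in a window and not binding.

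The Cyp4a genes, which hydroxylate fatty acids such as arachidonic and lauric acid, held both the steepest fall among the 18 tested members and 1 of the 2 rises. Cyp4a12a, the male-predominant arachidonic acid hydroxylase of mouse liver and kidney, was at 531.9, 316.0 and 671.7 CPM at 0 h and at 61.02, 55.15 and 133.3 CPM at 48 h. All 48 h libraries lay below all 0 h libraries, a 6.09-fold fall (log2 fold change -2.61, SE 0.362, edgeR adjusted p = 0.000276). Cyp4a12b, its near-identical copy, was at 190.9, 113.0 and 170.2 CPM and then at 36.05, 32.02 and 85.16 CPM. It fell 3.09-fold without overlap (log2 fold change -1.63, SE 0.340, edgeR adjusted p = 0.00339). In both genes, replicate 3 was the highest of the 48 h libraries. Counts summed over the pair, which do not depend on how reads were split between them, were 722.8, 428.9 and 842.0 CPM and then 97.06, 87.17 and 218.4 CPM (log2 fold change -2.31, SE 0.358, edgeR adjusted p = 0.000557).

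Cyp4a10, a PPARalpha target, was at 201.8, 508.0 and 618.8 CPM at 0 h and at 81.42, 125.4 and 182.1 CPM at 48 h. It fell 3.42-fold with no overlap between the groups (log2 fold change -1.77, SE 0.384, edgeR adjusted p = 0.00423). Cyp4a32, a copy of Cyp4a10, was at 44.73, 40.22 and 45.17 CPM and then at 10.54, 22.18 and 17.73 CPM, and it also fell (log2 fold change -1.37, SE 0.216, edgeR adjusted p = 0.000638). Cyp4a31, another copy, went the other way. Its libraries held 8.07, 13.9 and 15.7 CPM at 0 h and 16.1, 20.4 and 32.0 CPM at 48 h, a 1.82-fold rise in which the lowest 48 h library lay just above the highest 0 h library (log2 fold change 0.86, SE 0.275, edgeR adjusted p = 0.0287). That call was lost without 0 h replicate 1 (0.62, adjusted p = 0.0906), 0 h replicate 2 (0.93, adjusted p = 0.0544) or 48 h replicate 3 (0.55, adjusted p = 0.11). Summed over the 3 copies the libraries held 254.6, 562.1 and 679.6 CPM and then 108.1, 168.0 and 231.8 CPM, and this sum fell (log2 fold change -1.56, SE 0.348, edgeR adjusted p = 0.00501). Per length Cyp4a31 was the lowest of the 3 copies at 0 h, at 4.998 ± 1.58 FPKM against 28.2 ± 1.79 FPKM for Cyp4a32, and at 48 h these genes were at 9.10 ± 3.27 and 10.95 ± 3.82 FPKM with overlapping SDs (n = 3). There were 33.7 ± 7.67 counts of Cyp4a10 per count of Cyp4a31 at 0 h and 5.63 ± 0.549 at 48 h (SD, n = 3, not tested).

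Cyp4a14, the other classic PPARalpha target of the subfamily, was the most variable tested member at 0 h. It was at 82.51, 486.3 and 569.8 CPM at 0 h and at 160.7, 259.6 and 300 CPM at 48 h. Replicate 1 lay below every 48 h library and replicates 2 and 3 above them, and the log2 fold change of -0.66 (SE 0.525) did not pass the test (edgeR adjusted p = 0.345). Without 0 h replicate 1 the gene was called lower (log2 fold change -1.15, edgeR adjusted p = 0.00608), and it was also called with no filter on low counts (-0.68, edgeR adjusted p = 0.0396). Cyp4a10 was also lowest at 0 h in replicate 1, whereas Cyp4a12a and Cyp4a12b were lowest in replicate 2. Of the 28 tested genes on a list of PPARalpha targets, 9 were lowest at 0 h in replicate 1, 16 in replicate 2 and 3 in replicate 3, beside 5169, 6825 and 5043 of all 17037 genes tested. As a share of the Cyp4a counts, Cyp4a14 was 7.79%, 32.9% and 27.3% at 0 h and 43.9%, 50.4% and 40.0% at 48 h, higher in each 48 h library than in each 0 h library. Counts of Cyp4a14 per count of Cyp4a10 were 0.409, 0.957 and 0.921 at 0 h and 1.97, 2.07 and 1.65 at 48 h, also without overlap. These ratios were chosen after the values were seen and were not tested.

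**Figure D4:**
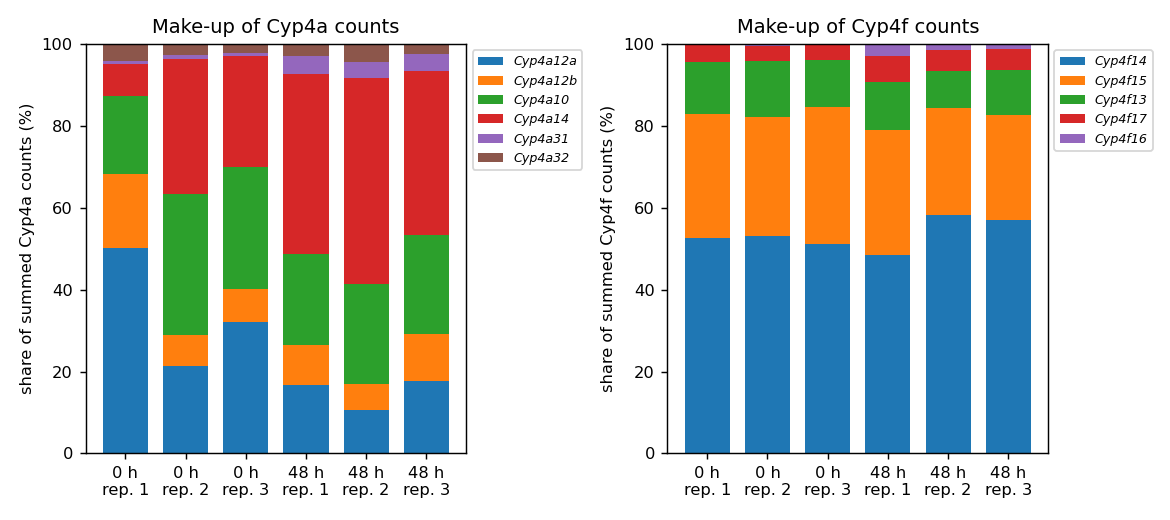
Stacked bars of the share of summed Cyp4a counts (left) and Cyp4f counts (right) taken by each gene (y, %), 1 bar per library (x). Cyp4a14 takes 22.7% ± 13.2 of Cyp4a counts at 0 h and 44.8% ± 5.27 at 48 h, and Cyp4a12a 34.6% ± 14.6 and 15.1% ± 3.80 (SD, n = 3), whereas Cyp4f14 and Cyp4f15 lead the Cyp4f counts in every library.

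Of the 9 Cyp4f genes, whose enzymes hydroxylate leukotrienes and other eicosanoids, 4 fell, 1 rose, 1 was not called and 3 were not tested. Cyp4f14, known for its action on leukotriene signals, was at 372.8, 414.6 and 394.6 CPM at 0 h and at 122.4, 183.1 and 181.9 CPM at 48 h (log2 fold change -1.28, SE 0.164, edgeR adjusted p = 0.000169). Cyp4f15 was at 213.9, 227.0 and 257.8 CPM and then at 77.35, 81.83 and 82.08 CPM (log2 fold change -1.53, SE 0.117, edgeR adjusted p = 4.47e-06). Both fell with all 48 h libraries below all 0 h libraries. Cyp4f13 was at 88.88, 106.0 and 88.39 CPM and then at 29.78, 28.08 and 34.73 CPM (log2 fold change -1.61, SE 0.123, edgeR adjusted p = 4.43e-06). Cyp4f17 was at 30.23, 30.10 and 28.52 CPM and then at 16.09, 15.97 and 16.28 CPM (log2 fold change -0.88, SE 0.0986, edgeR adjusted p = 6.97e-05). These genes fell without overlap as well, and the highest 0 h library of Cyp4f17 was 1.06 times its lowest, against 6.91 times for Cyp4a14. Cyp4f16 rose instead, from 0.987, 2.55 and 1.81 CPM to 6.56, 4.45 and 3.46 CPM, a 2.70-fold change at a low level (log2 fold change 1.43, SE 0.336, edgeR adjusted p = 0.00657). Its 48 h libraries were all above its 0 h libraries, and 82.6% of its 50-base windows were unique. Cyp4f39, known for its part in the lipid barrier of skin, was at 0.308 to 0.542 CPM and was not called (log2 fold change -0.36, edgeR adjusted p = 0.417).

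Cyp4v3, the mouse counterpart of a gene mutated in Bietti crystalline retinal dystrophy, was at 436.8, 477.0 and 461.1 CPM at 0 h and at 173.9, 218.7 and 251.2 CPM at 48 h. It fell 2.14-fold without overlap (log2 fold change -1.09, SE 0.150, edgeR adjusted p = 0.000253). Cyp4b1, best known in lung, where it activates some toxins, was at 5.51, 6.93 and 7.68 CPM and then at 1.87, 1.99 and 1.17 CPM. It fell to 25% of its 0 h level (log2 fold change -2.0, SE 0.234, edgeR adjusted p = 9.15e-05).

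Per length, the order of the members changed below the top. At 0 h Cyp3a11 was followed by Cyp3a25 at 295.5 ± 37.3 FPKM, Cyp4a10 at 210.0 ± 102.4 FPKM, Cyp4a12a at 209.1 ± 74.0 FPKM, Cyp4f14 at 162.9 ± 8.64 FPKM and Cyp4a14 at 145.9 ± 100.2 FPKM (SD, n = 3). The SDs of neighbours from Cyp3a25 down to Cyp4a14 overlapped, whereas those of Cyp3a11 and Cyp3a25 did not. At 48 h the order was Cyp3a11, Cyp3a25 at 133.4 ± 17.2 FPKM, Cyp4a14 at 92.3 ± 27.6 FPKM, Cyp4f14 at 67.2 ± 14.4 FPKM, Cyp4a10 at 61.5 ± 23.9 FPKM and Cyp4v3 at 56.4 ± 10.2 FPKM, again with overlap between neighbours below Cyp3a11. Cyp4a12a moved from rank 4 to rank 9 and Cyp3a13 from rank 10 to rank 7, at 40.9 ± 5.56 FPKM at 0 h and 44.4 ± 6.73 FPKM at 48 h.

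The 11 members that were not tested held few or no counts. Cyp4a29 and Cyp4x1 had 0 counts in every library, and Cyp3a16, Cyp3a41a, Cyp3a41b, Cyp3a57, Cyp4a30b, Cyp4f37 and Cyp4f40 had at most 2 in any library. A count of 0 allows 3 counts, which is 0.0839 to 0.102 CPM per library for counting error alone. Cyp4f18, best known in neutrophils, held 10 counts over the 0 h libraries and 11 over the 48 h libraries. Cyp3a44, which like Cyp3a16 and the Cyp3a41 pair is known from female mouse liver, held 1, 2 and 4 counts at 0 h and 14, 23 and 8 counts at 48 h. Every 48 h library was above every 0 h library, with 5.88-fold more CPM in sum, but the gene did not reach 10 counts in 3 libraries. With no filter on low counts it was called higher (log2 fold change 2.45, SE 0.623, edgeR adjusted p = 0.00150). Of its 50-base windows, 73.6% were unique, and it shares others with Cyp3a41a and Cyp3a41b, which together held 1 count at each time, with the pseudogene Cyp3a63-ps and with the far more abundant Cyp3a11. Whether its counts came from reads of Cyp3a11 was not tested.

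Among regulators of these genes, the growth hormone receptor and its signal carrier fell. A list of 15 regulators was chosen with earlier results of these data known. All were tested, and 5 fell, 0 rose and 10 were not called. Over all genes tested, 19.3% were called lower and 21.4% higher. Nr1i2, which encodes PXR, had a log2 fold change of 0.12 (edgeR adjusted p = 0.459), Nr1i3, which encodes CAR, of -0.16 (0.604), Ppara of -0.34 (0.165) and their partner Rxra of 0.04 (0.841). The receptor genes that induce Cyp3a11 and Cyp4a10 thus showed no called change in RNA, which says nothing of receptor activity. Ghr, the growth hormone receptor, was at 657.4, 697.3 and 704.0 CPM at 0 h and at 205.8, 261.7 and 287.6 CPM at 48 h and fell (log2 fold change -1.45, SE 0.149, edgeR adjusted p = 3.88e-05). Stat5b, which carries the growth hormone signal to the nucleus, fell from 101.2, 84.69 and 103.8 CPM to 45.82, 49.47 and 47.89 CPM (log2 fold change -1.02, edgeR adjusted p = 5.88e-05). For both genes all 48 h libraries lay below all 0 h libraries. Nr0b2, the bile acid induced repressor SHP, fell (log2 fold change -1.94, edgeR adjusted p = 2.08e-05), as did the hepatocyte factor Cebpa (-0.97, 0.00449) and Rxrb (-0.44, 0.00880). The others were Hnf4a (0.23, 0.200), Nr1h4, the bile acid receptor FXR (-0.23, 0.171), Cebpb (0.20, 0.409), Ppargc1a (0.15, 0.619), the glucocorticoid receptor Nr3c1 (-0.26, 0.0747) and Bcl6 (-0.32, 0.166), each with its log2 fold change and edgeR adjusted p, and none was called. The median of the list was -0.26. With scaling by library size alone, 4 regulators fell and 2 rose, where 5308 of all 17037 tested genes were called higher and 2110 lower.

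The gene of the electron donor rose. Por, the reductase that all of these enzymes depend on, was at 236.2, 307.6 and 339.4 CPM at 0 h and at 666.2, 836.7 and 661.8 CPM at 48 h, so every 48 h library was above every 0 h library (log2 fold change 1.29, SE 0.169, edgeR adjusted p = 0.000185). Of 12 electron partners and enzymes of haem synthesis, 3 rose, 3 fell and 6 were not called, with a median of 0.06, which is near the background of 21.4% higher and 19.3% lower over all tested genes. With scaling by library size alone 5 rose and 3 fell, where 5308 of all 17037 tested genes were called higher and 2110 lower. Alad, an early enzyme of haem synthesis, rose (0.74, edgeR adjusted p = 0.000666), as did Alas1, which sets its rate in liver (0.64, 0.00872). Pgrmc1, a haem-binding partner of P450 enzymes, fell (-0.82, edgeR adjusted p = 0.00142), as did Cyb5r3, which reduces cytochrome b5 (-0.71, 0.00564), and Uros, a later enzyme of haem synthesis (-0.63, 0.00321).

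Other targets of the same receptors were counted beside the 21.4% of all tested genes called higher and the 19.3% called lower, and the rises on both lists were near or under that background. Of 28 tested PPARalpha targets, 11 fell, 4 rose and 13 were not called, with a median log2 fold change of -0.29, and with scaling by library size alone 6 fell and 4 rose. The peroxisomal thiolase Acaa1b fell from between 213.6 and 327.6 CPM to between 18.26 and 61.80 CPM (log2 fold change -2.78, edgeR adjusted p = 0.000184), and the acyl-CoA synthetase Acsl1 fell by 1.81 on the log2 scale (0.000114). The acyl-CoA thioesterases Acot3 (3.42, edgeR adjusted p = 0.000808) and Acot2 (1.98, 0.00187) rose. Of 14 CAR and PXR targets, 8 fell, 3 rose and 3 were not called, with a median of -0.64. The carboxylesterase Ces2a (-1.89, edgeR adjusted p = 5.84e-06) and the transporter Abcc3 (-1.74, 5.72e-06) fell, while the stress gene Gadd45b (2.52, edgeR adjusted p = 0.000315) and the glutathione transferase Gstm3 (1.92, 8.14e-05) rose.

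Of 9 listed genes with a male bias in mouse liver, chosen with earlier results of these data known, 8 fell. Susd4 was not called (0.05, edgeR adjusted p = 0.789), and the median log2 fold change of the list was -1.76. Over all genes tested, 19.3% were called lower and 21.4% higher, which is also the background for the female-biased list below. Without 0 h replicate 1 the number called lower was 4, with a median of -1.71. The fatty acid elongase Elovl3 was at 366.7, 364.3 and 341.9 CPM at 0 h and at 3.18, 4.78 and 23.1 CPM at 48 h (log2 fold change -5.11, SE 0.634, edgeR adjusted p = 0.000136). Hsd3b5, a steroid enzyme, was at 320.0, 278.7 and 241.9 CPM and then at 3.92, 10.3 and 25.4 CPM (log2 fold change -4.41, SE 0.527, edgeR adjusted p = 0.000107). In both, as in the male-predominant Cyp4a12a, replicate 3 was the highest of the 48 h libraries. It was also the highest for Cyp4a10, Cyp4a14, Cyp4a31 and Cyp4v3, whereas replicate 2 was the highest for Cyp3a11, Cyp3a13 and Cyp3a25. How often replicate 3 was the highest over all tested genes was not counted. The glucuronosyltransferase Ugt2b38 (-2.03, edgeR adjusted p = 0.0131) and the transporter Slco1a1 (-1.97, 0.00036) also fell. Of 13 genes with a female bias, 6 were tested, of which 4 rose and 2 were not called, with a median of 1.56. The uncalled genes were Cux2 (0.96, edgeR adjusted p = 0.106) and Cyp2b9, whose log2 fold change was negative (-2.56, edgeR adjusted p = 0.0890). Without 48 h replicate 1, 2 of 5 tested rose, and 1 gene of the list was called lower without 0 h replicate 1, with a replicate block or with no filter on low counts, where 7 of 13 were higher. The steroid hydroxylase Cyp17a1 rose from 3.78, 5.03 and 6.23 CPM to 24.6, 9.71 and 13.3 CPM (log2 fold change 1.66, edgeR adjusted p = 0.00203). The monooxygenase Fmo2 rose as well (1.45, edgeR adjusted p = 0.0130). Prom1 and Ntrk2, both listed at a low level at 0 h, were the other two that rose. A filter that needs counts in only 3 libraries favours genes that are high at 1 time, so the count among tested female-biased genes is a description.

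**Figure D5:**
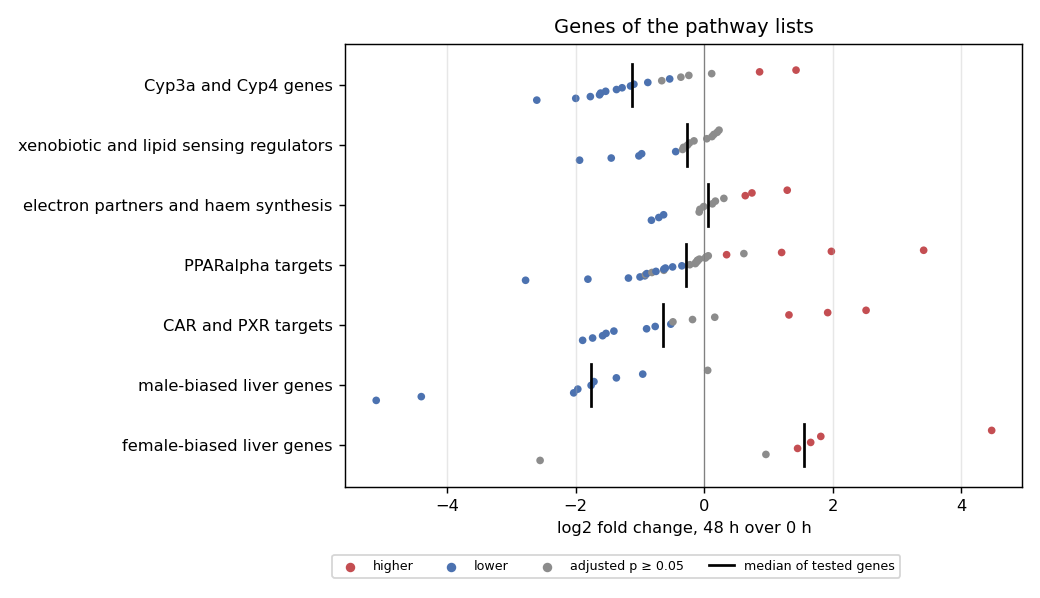
Log2 fold change of 48 h over 0 h (x) for each tested gene of the Cyp3a and Cyp4 families and of 6 pathway lists (y), with red for genes called higher, blue lower and grey not called, and a black line at the median. The medians are -1.12 for the Cyp3a and Cyp4 genes, -0.26 for the regulators, 0.06 for electron partners and haem synthesis, -0.29 for PPARalpha targets, -0.64 for CAR and PXR targets, -1.76 for male-biased and 1.56 for female-biased genes.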

How the data were processed

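RNA-Seq of hepatocytes from 3 mice at 0 h and 3 at 48 h after PHx was analysed from the count files that the authors deposited, which hold whole-number counts of reads per gene, not normalized. The submitters' processing notes name FastQC 0.11.5, Trim Galore 0.6.4, STAR 2.6, HTSeq 0.12.4, DESeq2 and mm10, without settings. Whether counting used strand is not given in the sources used here. The line for reads aligned to several places holds 0, so how reads of near-identical copies were treated is not given. Between 24.3% and 32.7% of counted reads fell on no gene and 4.27% to 5.29% were ambiguous, and these lines were left out. Groups came from the labels. Replicates differed by more than sampling noise, and each came from its own mouse per the study's methods.

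The test was edgeR 4.0.16 (R 4.3.3, TMM, glmQLFit, glmQLFTest), with time point as the only term, on the 17037 genes that reached 10 counts in 3 or more libraries, with Benjamini-Hochberg adjustment over all of them. The standard error is the absolute log2 fold change divided by the root of F. FPKM used the union of exons of GENCODE M21. Promoters are RefSeq's on GRCm38.p6, and coding sequences GENCODE's. The members, lists and tests were chosen with earlier results of these data known. Values were given for every member called or above a mean of 10 CPM, for every regulator, for Por, and for up to 4 genes per list with the largest called changes at a mean of at least 1 CPM. Alas1, Uros, Susd4, Prom1, Ntrk2, Cux2 and Cyp2b9 were named outside this rule after their values were seen, to complete small counts. Alternatives were library size only, RLE factors, TMM from protein-coding genes, no filter, a minimum of 50 counts, a replicate block, DESeq2 1.42.0, summed copies and leaving out each library.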

Additional observations from a re-analysis of the deposited data

How the results depend on the processing

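The count of members called lower was 12 and lay between 11 and 13 under every alternative run, and the count called higher was 2 and lay between 1 and 2 when each library was left out in turn, because the call of Cyp4a31 was lost without 0 h replicate 1, 0 h replicate 2 or 48 h replicate 3. With no filter on low counts the counts were 13 lower and 3 higher, Cyp4a14 (log2 fold change -0.68, edgeR adjusted p = 0.0396) and Cyp3a44 being added. Cyp4a31 turned to -1.56 when its counts were summed with those of Cyp4a10 and Cyp4a32, which is by construction the change of the more abundant copies. With a replicate block the counts were 12 lower and 2 higher, as without it. Animals at the 2 times were different mice that share only a number, and deviations of libraries with the same number correlated at 0.03, -0.07 and -0.14. Over all genes the block moved the calls from 3638 higher and 3288 lower to 3237 and 2884. Scaling by library size alone shifted the median of all genes to 0.20 on the log2 scale, calling 5308 genes higher and 2110 lower over all genes, and Cyp3a59 was then not called (-0.33, adjusted p = 0.176). No tested member changed direction under another scaling. Of 238 values of single members under an alternative, 227 kept their direction and side of the threshold, and 15 of the 18 tested members kept both under every alternative that gave them a value, the exceptions being Cyp3a59, Cyp4a14 and Cyp4a31. Cyp4f39, one of the 15, was not tested with the minimum of 50 counts. Depth limits the 11 members with few counts, for which a change was not detectable with the filter used.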
